A study of Mus musculus with 16 samples.

Results

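Brain endothelial cells line the vessels of the brain and form the blood-brain barrier, and 10 genes that are widely used to read these cells were followed here: Cldn5, Cdh5, Pecam1, Flt1, Vwf, Slc2a1, Mfsd2a, Slco1a4, Abcb1a and Ly6c1. The genes were chosen by name, and all 10 were found among 54532 entries of the count table and were among the 17736 genes tested. The 16 brain libraries were all from females aged 9 months. They formed 4 groups of 4 libraries. Tau- mice either had Ch25h (Ch25h+/+ Tau-) or lacked it (Ch25h-/- Tau-), and Tau+ mice likewise (Ch25h+/+ Tau+ with the gene, Ch25h-/- Tau+ without it). Ch25h encodes the enzyme that makes 25-hydroxycholesterol, an oxysterol. Ch25h-/- marks loss of both copies of the gene, and Tau+ is read as carrying a tau transgene, whose allele, promoter and strain background the labels do not give. The tissue is frontal cortex by the sample labels but hippocampus by the series text. The labels do not say whether a library is 1 animal or a pool, so p-values measure the spread between these 16 libraries.

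The barrier rests on a few kinds of protein. Claudin-5, encoded by Cldn5, seals the tight junctions between endothelial cells, and VE-cadherin (Cdh5) and PECAM-1 (Pecam1) hold the cells together at adherens junctions and along their borders. Glucose enters the brain through the transporter GLUT1 (Slc2a1), while lipids with docosahexaenoic acid enter through Mfsd2a, which is also known for keeping transcytosis low. Slco1a4 carries organic anions and thyroid hormones, and P-glycoprotein (Abcb1a) pumps drugs back into the blood. Flt1 encodes a receptor of vascular endothelial growth factors, Vwf a clotting protein stored in endothelial cells, and Ly6c1 a surface protein of brain endothelium in mice.

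Cldn5 and Slco1a4 lay farthest apart among the 10 genes in the comparisons of Ch25h genotype described below, and they also lie at the ends of the range of base composition of the exons. The 250 bases before their annotated starts are shown (RefSeq, build GRCm38.p6), 5′ to 3′ on the strand of the gene, with CpG pairs in capitals. The Cldn5 window, chr16:18776597-18776846 on the + strand, had 59.6% G+C and 12 CpG pairs. The Slco1a4 window, chr6:141856221-141856470 on the - strand, had 39.2% G+C and 0 CpG pairs.
Cldn5: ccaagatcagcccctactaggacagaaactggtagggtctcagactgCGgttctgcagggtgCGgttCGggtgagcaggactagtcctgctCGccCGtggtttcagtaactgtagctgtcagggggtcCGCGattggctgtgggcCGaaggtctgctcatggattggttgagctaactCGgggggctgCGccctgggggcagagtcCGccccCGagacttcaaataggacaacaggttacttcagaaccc
Slco1a4: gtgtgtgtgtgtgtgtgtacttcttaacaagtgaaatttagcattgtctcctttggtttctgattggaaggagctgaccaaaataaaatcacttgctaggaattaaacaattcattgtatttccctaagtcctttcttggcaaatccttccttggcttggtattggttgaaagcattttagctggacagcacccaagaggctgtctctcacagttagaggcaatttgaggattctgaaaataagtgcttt
Of 32851 such windows in the RefSeq table, 92.1% held at least 1 CG (the motif reads the same on both strands), with a median of 6 and a median G+C of 52.4%. RefSeq windows were matched for 7 of the 10 genes, and in them Cldn5 was not at the end of the range: Flt1 had 70.4% G+C and 23 CpG pairs, Slc2a1 66.4% and 13, and Mfsd2a 61.6% and 17, while 1 of the 2 Ly6c1 windows (53.2%) held 0 and the other (48.4%) held 1. The Abcb1a window (40.4%, 0 CpG pairs) is at chr5:8566841-8567090, far upstream of the start of that gene in the annotation given next. The exons of the 10 genes in GENCODE M21 (GRCm38) ran from 40.33% G+C in Slco1a4 (chromosome 6) and 45.19% in Abcb1a (chromosome 5) to 56.54% in Vwf (chromosome 6) and 60.45% in Cldn5 (chromosome 16), with the other 6 genes between 49.64% and 54.16%. In that annotation Cldn5 lies at chr16:18776847-18778262, Slco1a4 at chr6:141805440-141856199 and Abcb1a at chr5:8660077-8748575, and all 10 are protein-coding genes.

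Libraries held 15530352 to 25602500 counts, and a member had between 190 (Mfsd2a) and 3286 (Slc2a1) counts in a library. Ch25h, read as a check of the labels, had 5 to 10 counts in each Tau- library with the gene, 11 to 30 counts in each Tau+ library with the gene and 0 counts in all 8 Ch25h-/- libraries. The ribosomal RNA transcript CT010467.1 split the libraries into 7 rich in it (2289 to 5684 CPM, counts scaled to a fixed library total) and 9 poor in it (110.8 to 474.6 CPM). All 7 rRNA-rich libraries were Ch25h-/-, and of the Ch25h-/- libraries replicate 1 of Tau+ alone was rRNA-poor. In the 7 rRNA-rich libraries, each gene's log2 CPM minus its mean over all libraries ran against G+C content across genes (Spearman correlation -0.449 to -0.304), whereas it ran with it in the 9 rRNA-poor libraries (0.0907 to 0.42). Choroid plexus markers summed to between 16.5 and 2793 CPM per library, with a wide range in every group. Red blood cell markers summed to 2.32 to 37.7 CPM. All 10 endothelial genes had counts in all 16 libraries.

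Per kilobase of transcript, the levels of the 10 genes spread over an order of magnitude. Ly6c1 (34.6 CPM per kb, mean of 16 libraries), Slc2a1 (33.0) and Cldn5 (32.1) stood highest. Slco1a4 (11.1) and Flt1 (10.4) followed, then Abcb1a (7.53), Mfsd2a (7.30), Pecam1 (6.59), Cdh5 (4.36) and Vwf (2.98). Several neighbours in this order did not differ beyond their spread: Ly6c1 was above Slc2a1 in 10 of 16 libraries, Slc2a1 above Cldn5 in 11, Abcb1a above Mfsd2a in 10, Mfsd2a above Pecam1 in 11 and Slco1a4 above Flt1 in 12. Cldn5 was above Slco1a4, Flt1 above Abcb1a, Pecam1 above Cdh5 and Cdh5 above Vwf in 16 of 16 libraries. Across libraries, Pecam1 was the steadiest, with a coefficient of variation of 8.97% and a range of 19.4 to 26.3 CPM. Mfsd2a (25.9%, 11.5 to 28.0 CPM), Cldn5 (25.2%, 31.8 to 76.4 CPM) and Vwf (21.5%, 18.1 to 37.6 CPM) varied most.

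**Figure D1:**
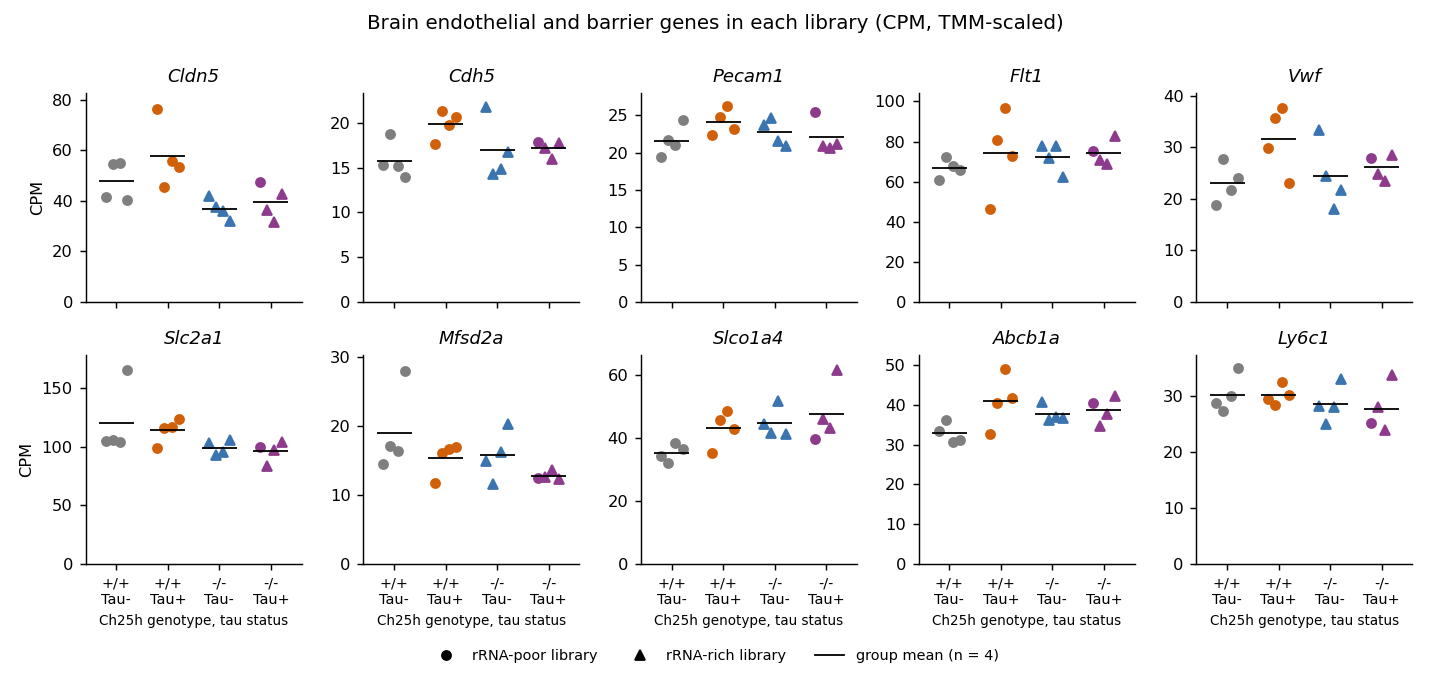
Level of each of the 10 genes (y axis, CPM on TMM-scaled library sizes, from 0) in the 16 libraries, by Ch25h genotype and tau status (x axis). Circles are rRNA-poor and triangles rRNA-rich libraries, and lines are group means of 4 libraries. Cldn5 is highest in Ch25h+/+ Tau+ replicate 1 (76.4 CPM), and Slc2a1 and Mfsd2a are both highest in Ch25h+/+ Tau- replicate 4 (166 and 28.0 CPM).

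Differences between groups were tested with edgeR's quasi-likelihood test over all 17736 genes, with Benjamini-Hochberg adjustment and a threshold of 0.05. In none of the 5 comparisons did any of the 10 genes pass. Against that count of 0, the share of all genes past the threshold was 1.56% for the tau effect in Ch25h+/+, 0.0395% for the tau effect in Ch25h-/-, 3.55% for Ch25h loss in Tau+, 1.03% for Ch25h loss in Tau- and 0.0338% for the interaction (the tau effect in Ch25h-/- minus that in Ch25h+/+). At an unadjusted p under 0.05 the counts were 4, 0, 1, 3 and 0 of 10, against 9.38%, 3.68%, 23.9%, 20.9% and 4.13% of all genes. The 4 libraries of each group lay apart with no overlap for 0, 0, 0 and 2 of the 10 genes in the 4 comparisons of groups, against 5.86%, 2.14%, 10.2% and 16.2% of all genes. Other tools called a single gene in some comparisons. These were Abcb1a for the tau effect in Ch25h+/+ (limma-voom) and Cldn5 for Ch25h loss in Tau+ (DESeq2 and limma-voom). The standard errors of the log2 fold changes between groups were 0.10 to 0.19, and their 95% intervals ran from -0.86 at the lowest bound to 0.81 at the highest. In bulk tissue, fewer endothelial cells and less RNA per cell cannot be told apart.

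**Figure D2:**
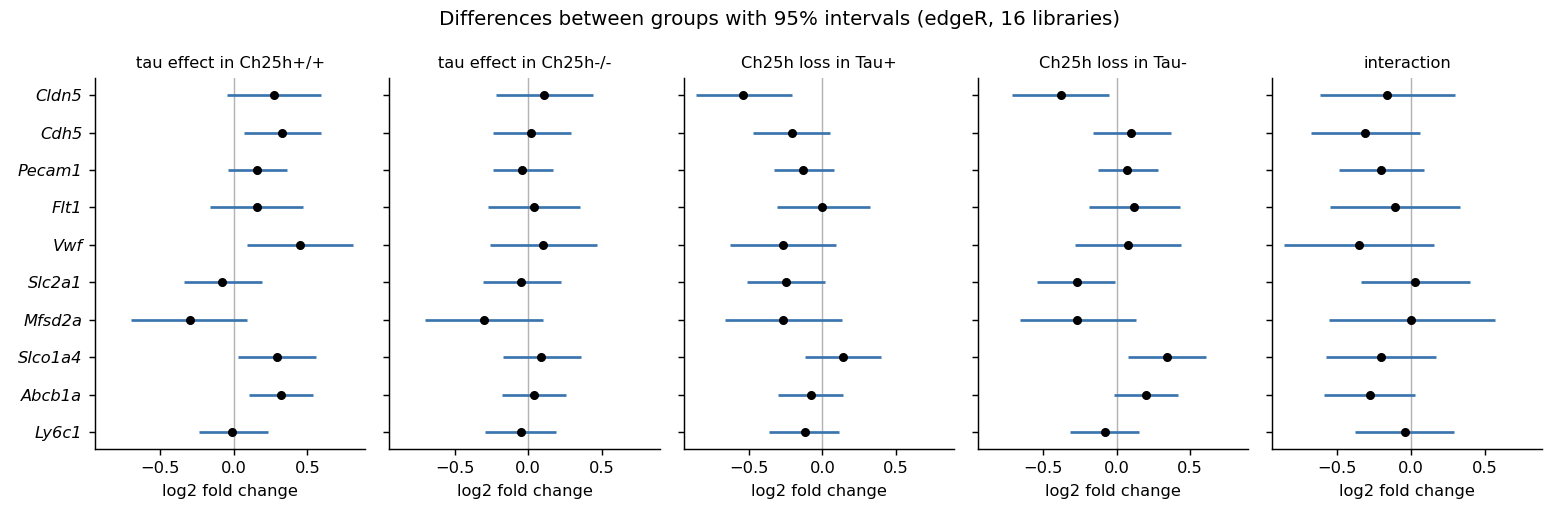
Difference between groups for each of the 10 genes (x axis, log2 fold change; points are edgeR estimates and bars 95% intervals) in the 4 comparisons of groups and the interaction. Intervals exclude 0 for Abcb1a, Cdh5, Slco1a4 and Vwf with tau in Ch25h+/+, for Cldn5 with Ch25h loss in Tau+, and for Cldn5, Slc2a1 and Slco1a4 with Ch25h loss in Tau-, all before adjustment over genes.

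With Ch25h present, 7 of the 10 genes were higher in Tau+ than in Tau- (47.8% of all genes were), and the median log2 fold change was 0.21, against -0.01 over all genes tested. The drug efflux pump Abcb1a had 33.4, 36.2, 30.7 and 31.2 CPM in the Tau- libraries and 32.6, 40.6, 49.2 and 41.9 CPM in the Tau+ libraries. Of the Tau+ libraries, only replicate 1 lay within the Tau- range. Its log2 fold change was 0.32 (SE 0.10, adjusted p 0.196), which passed without that library (0.42, adjusted p 0.0174) and with limma-voom (0.37, adjusted p 0.0247), while leaving out replicate 3 of Tau+ gave 0.22 with an adjusted p of 0.46. The gene model Gm42686 overlaps exons of Abcb1a on the opposite strand and had at most 0.43 CPM. The near copy Abcb1b had 2.46 to 6.39 CPM.

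Vwf, the clotting protein, had 18.9, 27.8, 21.7 and 24.0 CPM in Ch25h+/+ Tau- and 29.9, 35.7, 37.6 and 23.0 CPM in Ch25h+/+ Tau+. Replicate 4 of Tau+ lay within the Tau- range and the other 3 above it. The difference was 0.45 on the log2 scale (SE 0.17, adjusted p 0.337). VE-cadherin (Cdh5) went from 15.8 ± 2.07 to 19.8 ± 1.64 CPM (SD, n = 4), a difference of 0.33 (SE 0.12, adjusted p 0.319), with 1 Tau- library at 18.7 CPM inside the Tau+ range of 17.6 to 21.3. Slco1a4 had 31.9 to 38.2 CPM without tau and 35.2, 45.7, 48.4 and 42.7 CPM with it (0.29, SE 0.13, adjusted p 0.454), so that again replicate 1 of Tau+ was the library inside the Tau- range.

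Claudin-5 (Cldn5) had 41.6, 54.5, 55.1 and 40.2 CPM in Ch25h+/+ Tau- and 76.4, 45.3, 55.8 and 53.5 CPM in Ch25h+/+ Tau+. The groups overlapped, with 1 Tau+ library far above the rest. The log2 fold change was 0.27 (SE 0.15, adjusted p 0.670), and 0.11 without that library. Pecam1 (0.16) and Flt1 (0.16) differed less. Flt1 ranged from 46.2 to 96.6 CPM within the Tau+ libraries, which spans the whole Tau- range of 60.8 to 72.1 CPM. Flt1 was at 0.33 without the lower of these, Ch25h+/+ Tau+ replicate 1 (adjusted p 0.124), and at 0.00 without the higher, replicate 3 (adjusted p 0.999).

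The lipid and glucose transporters did not share this direction. Mfsd2a had 14.5, 17.1, 16.3 and 28.0 CPM in Ch25h+/+ Tau- and 11.7, 16, 16.7 and 16.9 CPM in Ch25h+/+ Tau+ (log2 fold change -0.30, SE 0.19, adjusted p 0.709), and the difference was -0.06 without Ch25h+/+ Tau- replicate 4. Slc2a1 in the same library stood at 166 CPM, against 104 to 106 CPM in the other 3. Its tau difference was -0.08 (SE 0.12), and 0.12 without that library. Ly6c1 was nearly level, at 30.3 ± 3.33 and 30.2 ± 1.74 CPM (SD, n = 4), with a 95% interval of -0.24 to 0.23 on the log2 scale. Ly6c1 has a near copy, Ly6c2, which was at 0 to 0.482 CPM, so reads shared between the copies leave its level uncertain.

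With Ch25h absent, the tau differences lay nearer to 0 for most of the genes. The median was 0.03 (0.01 over all genes), 6 of 10 were above 0 (52.8% of all genes) and no member reached an unadjusted p under 0.05. Abcb1a was at 37.8 ± 2.12 and 38.9 ± 3.31 CPM (SD, n = 4), and Vwf at 24.4 ± 6.53 and 26.2 ± 2.37 CPM (SD, n = 4). Cdh5 was at 16.9 ± 3.42 and 17.2 ± 0.868 CPM (SD, n = 4). Mfsd2a had the largest difference, from 14.9, 11.5, 16.2 and 20.2 CPM in Tau- to 12.5, 12.6, 13.6 and 12.3 CPM in Tau+. Its log2 fold change was -0.30 (SE 0.19, adjusted p 1.0), and -0.16 without replicate 4 of Ch25h-/- Tau-. The 4 Tau+ libraries lay close together and inside the Tau- range. Library class was not balanced in this comparison, because replicate 1 of Ch25h-/- Tau+ was rRNA-poor and the other Ch25h-/- libraries rRNA-rich. With library class as a covariate the tau effect was 0.01 for Cldn5, -0.12 for Pecam1 and 0.17 for Slco1a4. Without the covariate these values were 0.11, -0.04 and 0.09.

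The difference between the tau effects was tested itself as the interaction. It was below 0 in 8 of the 10 genes, with a median of -0.18 against 0.02 over all genes tested, of which 53.7% were above 0. The lowest values were -0.35 for Vwf (SE 0.24), -0.31 for Cdh5 (SE 0.18) and -0.28 for Abcb1a (SE 0.15), each with an adjusted p of 1.0. Single libraries carried part of these values. Without Ch25h-/- Tau- replicate 1 the tau effect in Ch25h-/- was 0.28 for Vwf and 0.16 for Cdh5, against 0.10 and 0.02 with it, and the interactions were -0.17 and -0.18. Without Ch25h+/+ Tau+ replicate 3 that of Abcb1a was -0.18. With library class as a covariate the interaction was -0.38 for Vwf, -0.33 for Cdh5 and -0.30 for Abcb1a. For Pecam1 it was -0.28 with the covariate and -0.20 without it. The 95% interval for Cdh5 was -0.68 to 0.06 and that for Abcb1a was -0.59 to 0.03. A difference between the tau effects of Ch25h+/+ and Ch25h-/- was therefore not shown for any of the 10 genes.

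Ch25h loss in Tau+ gave the lowest adjusted p of the 10 genes, for Cldn5. Its 4 Ch25h-/- Tau+ libraries had 47.5, 36.3, 31.8 and 42.9 CPM, against 76.4, 45.3, 55.8 and 53.5 CPM in Ch25h+/+ Tau+. Of the Ch25h-/- libraries, only replicate 1 reached the Ch25h+/+ range. Cldn5 went from 57.8 ± 13.2 to 39.6 ± 6.93 CPM (SD, n = 4), a log2 fold change of -0.54 (SE 0.16, 95% interval -0.86 to -0.21) with an adjusted p of 0.0603. It passed with no filter on low counts (-0.55, adjusted p 0.00877), with DESeq2 (-0.54, 0.0142), with limma-voom (-0.48, 0.033), and when replicate 2 of Ch25h+/+ Tau+ (-0.66, 0.0224) or replicate 1 of Ch25h-/- Tau+ (-0.66, 0.0224) was left out. Without Ch25h+/+ Tau+ replicate 1 it was -0.38 (adjusted p 0.16).

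The library class moved with this comparison. The Ch25h-/- Tau+ library with the highest Cldn5, replicate 1, was the rRNA-poor library, and its 47.5 CPM lay between the 45.3 and the 53.5 CPM of Ch25h+/+ Tau+ libraries. After correction of every library for its own trend over G+C content (GC-corrected offsets), the Cldn5 difference was -0.32 (adjusted p 0.273). With library class as a covariate it was -0.28 (adjusted p 0.976), a value that rests on 1 rRNA-poor Ch25h-/- library. Since no Ch25h+/+ library was rRNA-rich, Ch25h loss and library class otherwise cannot be told apart.

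Cldn5 in Tau- had 42.0, 37.4, 36.0 and 31.9 CPM without Ch25h and 41.6, 54.5, 55.1 and 40.2 CPM with it, and only the highest Ch25h-/- library reached the Ch25h+/+ range. The log2 fold change was -0.38 (SE 0.16, adjusted p 0.176), and -0.16 with GC-corrected offsets. Relative to Pecam1 in the same library, Cldn5 stood at 2.23 ± 0.443 and 2.42 ± 0.694 (ratio of CPM, SD, n = 4) in the Ch25h+/+ groups without and with tau. The ratio was 1.62 ± 0.122 and 1.79 ± 0.205 (SD, n = 4) in the Ch25h-/- groups. This ratio needs no library size, but it keeps a library's trend over G+C content. The exons of Cldn5 have 60.45% G+C and those of Pecam1 50.22%. The ranges of the ratio overlapped in both tau states (1.64 to 2.62 against 1.51 to 1.77 in Tau-, and 1.83 to 3.42 against 1.53 to 2.02 in Tau+).

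Slco1a4, the organic anion transporter, was higher without Ch25h in Tau-. There it had 34.1, 31.9, 38.2 and 36.3 CPM with Ch25h and 44.2, 41.5, 51.5 and 41.1 CPM without it. The 4 Ch25h-/- libraries all lay above the 4 Ch25h+/+ libraries. The log2 fold change was 0.34 (SE 0.13, adjusted p 0.139), which passed in a fit of only these 8 libraries (0.34, adjusted p 0.043). With GC-corrected offsets it was 0.16 (adjusted p 0.621). All 4 Ch25h-/- Tau- libraries were rRNA-rich and all 4 Ch25h+/+ Tau- libraries rRNA-poor, so in Tau- Ch25h loss and library class cannot be told apart. With the library class covariate, whose value for Tau- is set by the rRNA-poor library of Ch25h-/- Tau+, Slco1a4 was at 0.00 and Cldn5 at -0.02 (adjusted p 1.0 each). In Tau+ the same gene was at 43.0 ± 5.71 CPM with Ch25h and 47.5 ± 9.72 CPM (SD, n = 4) without it, a difference of 0.14 (SE 0.13). That difference had no steady sign, with -0.03 under GC-corrected offsets, -0.12 with the library class covariate and -0.02 without replicate 4 of Ch25h-/- Tau+. Near copies of Slco1a4 had few reads, with Slco1a5 at no more than 0.812 CPM and Slco1a6 at no more than 0.12 CPM.

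Abcb1a was the only other gene without overlap in Tau-, at 30.7 to 36.2 CPM with Ch25h and 36.3 to 40.9 CPM without it. The gap between the groups was narrow, and the log2 fold change was 0.20 (SE 0.10, adjusted p 0.286), or 0.10 with GC-corrected offsets (adjusted p 0.763). Slc2a1 stood at 120 ± 30.2 CPM with Ch25h and 99.5 ± 6.35 CPM (SD, n = 4) without it, a difference of -0.27 (SE 0.13, adjusted p 0.221). Without Ch25h+/+ Tau- replicate 4 its difference was -0.08. In Tau+ it was -0.25 (SE 0.13, adjusted p 0.241), from 114 ± 10.5 to 96.2 ± 8.78 CPM (SD, n = 4), and with GC-corrected offsets -0.18 in Tau- and -0.15 in Tau+. The antisense gene Gm12868, which overlaps an exon of Slc2a1, had at most 0.605 CPM. For Ly6c1, Pecam1 and Flt1 the Ch25h loss values in both tau states lay between -0.13 and 0.12. Flt1 in Tau+ was at -0.17 without Ch25h+/+ Tau+ replicate 1. With the library class covariate, which for Ch25h loss rests on 1 library in either tau state, Pecam1 was at 0.08 in Tau+ and 0.36 in Tau-, and Ly6c1 at -0.26 and -0.27. Cdh5 was at -0.21 in Tau+ and 0.10 in Tau-, Vwf at -0.27 and 0.08, and Mfsd2a at -0.27 in both. With GC-corrected offsets, in the same order, Cdh5 was at -0.15 and 0.15, Vwf at -0.13 and 0.22, and Mfsd2a at -0.16 and -0.17. Single libraries carried the values in Tau-: without Ch25h-/- Tau- replicate 1 Cdh5 was at -0.04 and Vwf at -0.11, and without Ch25h+/+ Tau- replicate 4 Mfsd2a was at -0.02.

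Set side by side, the 10 genes followed base composition with Ch25h loss. The median difference was -0.17 in Tau+, with 2 of 10 genes above 0 (50.7% of all genes), and 0.08 in Tau-, with 6 of 10 above 0 (51.4%). In Tau+ the order ran from Slco1a4 at 0.14 to Cldn5 at -0.54, and Pearson's r of the difference with exon G+C was -0.926 across the 10 genes. In Tau- it ran from Slco1a4 at 0.34 to Cldn5 at -0.38, with an r of -0.797. With GC-corrected offsets the distance between the highest and lowest gene went from 0.68 to 0.35 in Tau+ and from 0.72 to 0.40 in Tau-, and r was -0.64 and -0.448. For the tau effects r was -0.122 in Ch25h+/+ and -0.095 in Ch25h-/-. These correlations describe 10 genes measured in the same libraries. The part of library class and base composition in the Ch25h loss values was not tested.

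**Figure D3:**
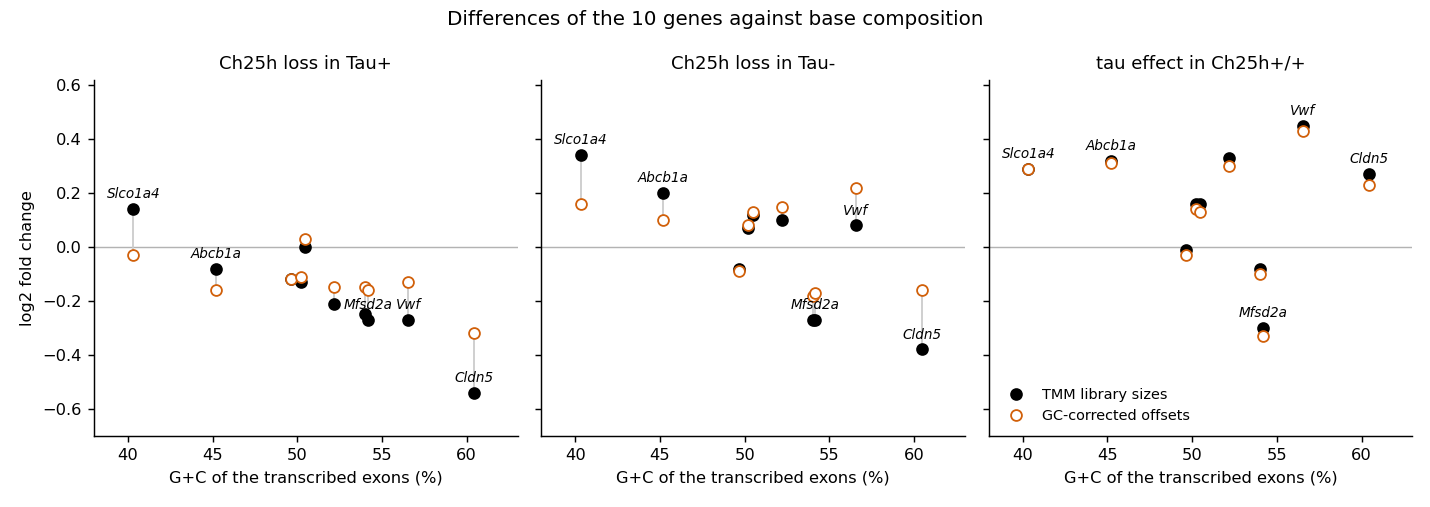
Log2 fold change of each of the 10 genes (y axis) against the G+C content of its exons (x axis, percent) for Ch25h loss in Tau+, Ch25h loss in Tau- and the tau effect in Ch25h+/+. Filled points use TMM library sizes and open points GC-corrected offsets. For Ch25h loss the filled points run downwards from Slco1a4 (40.33% G+C) to Cldn5 (60.45%), and the open points lie closer together.

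The 10 genes varied together to different extents. Over the 16 libraries, log2 CPM of a member had a Pearson r with the mean z-score of the other 9 of 0.618 for Vwf, 0.612 for Abcb1a and 0.576 for Pecam1, but of 0.142 for Cldn5 and 0.141 for Mfsd2a. With group means subtracted, Cldn5 was at -0.166, Mfsd2a at 0.35 and Flt1 highest at 0.669. Mfsd2a and Slc2a1 had an r of 0.817 with each other, and of 0.821 with group means subtracted. Among 14481 genes whose log2 CPM averaged 1 or more, those most like the mean of the 10 were Wipf1 (r 0.877), Ahnak (0.824), Cyp2d22 (0.821), Glul (0.817) and Itpripl2 (0.801). With group means subtracted they were 1110002E22Rik (0.894), Pcdhgb2 (0.865), Mid1-ps1 (0.865), Gm7694 (0.861) and Glul (0.854). Glul, which encodes glutamine synthetase, an enzyme of astrocytes, was the only gene in both lists. These are the highest of many correlations over 16 libraries that share group, depth and library class.

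Other genes of the barrier were read from lists of names. Beside their counts stand the shares of all genes given above, 1.56% past the threshold and 47.8% above 0 for tau in Ch25h+/+, 3.55% and 50.7% for Ch25h loss in Tau+, and 0.0338% and 53.7% for the interaction. Of 13 other junction and adhesion genes, such as Ocln and Tjp1, none passed in any comparison, and their median for tau in Ch25h+/+ was 0.13. Of 17 other endothelial identity genes, such as Kdr and Tek, none passed. For tau in Ch25h+/+ 16 were above 0 (median 0.15), and for the interaction 16 were below 0 (median -0.19). These counts are not separate, since the interaction subtracts the tau effect in Ch25h+/+. Of 12 arterial and venous genes none passed, and their median for tau in Ch25h+/+ was 0.00. The 2 comparisons that share the Ch25h+/+ Tau+ libraries, tau in Ch25h+/+ and Ch25h loss in Tau+, hold all calls of the other lists.

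Of 16 other transporters and transport receptors, 1 rose with tau in Ch25h+/+ (1.56% of all genes passed there) and 2 fell with Ch25h loss in Tau+ (3.55% passed). Slc16a1 encodes the monocarboxylate transporter MCT1, which carries lactate and ketone bodies and is also made by glia. With Ch25h it had 36.5, 36.8, 36.6 and 34.2 CPM in Tau- and 52.2, 46.5, 58.3 and 52.5 CPM in Tau+. Without Ch25h it had 38.1, 38.4, 37.6 and 40.2 CPM in Tau- and 38.9, 41.3, 31.6 and 41.0 CPM in Tau+. The 4 Ch25h+/+ Tau+ libraries lay above all the others. Slc16a1 rose by 0.54 with tau in Ch25h+/+ (SE 0.09, adjusted p 0.00179), and no alternative run lost this call. It fell by 0.46 with Ch25h loss in Tau+ (SE 0.09, adjusted p 0.0107). That call was lost in the fit of these 8 libraries alone (adjusted p 0.0889) and with the library class covariate (-0.43, adjusted p 0.771). It was also lost in rRNA-poor libraries only, a fit that holds 1 Ch25h-/- library. Slc3a2, the heavy chain of amino acid transporters, fell by 0.34 in Tau+ (adjusted p 0.0462). It stood at 151 ± 22.3 CPM with Ch25h and 119 ± 9.86 CPM (SD, n = 4) without the gene. This call was lost in 11 of 16 fits that left out 1 library and in 6 of 11 other alternatives. Among the latter were the library class covariate (-0.19, adjusted p 0.976) and GC-corrected offsets (-0.26, adjusted p 0.15). In Tau-, where it did not pass, Slc3a2 was also lower without Ch25h. It had 125, 131, 132 and 129 CPM with Ch25h there and 120, 110, 103 and 117 CPM without it, with no overlap.

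Of 15 genes of the Wnt pathway that maintains the barrier, 14 were above 0 for tau in Ch25h+/+ (median 0.19) and none passed. For Ch25h loss in Tau+, 14 were below 0 (median -0.14) and 1 fell past the threshold, the Wnt target and inhibitor Apcdd1. Apcdd1 had 29.0, 30.3, 34.4 and 40.0 CPM in Ch25h+/+ Tau+ and 22.3, 22.6, 20.3 and 22.3 CPM in Ch25h-/- Tau+. The groups did not overlap, and Apcdd1 fell by 0.61 (SE 0.12, adjusted p 0.0106). With library class as a covariate the value was -0.59 with an adjusted p of 0.769.

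Of 14 genes of leaky or activated endothelium, 11 were tested, and Selp, an adhesion molecule of activated vessels, had at most 3 counts in every library. With tau in Ch25h+/+, 10 of the 11 were above 0 (median 0.39) and 1 rose past the threshold. This was Cd9, a tetraspanin that glia also make, at 22.4, 26.5, 28.5 and 24.1 CPM in Ch25h+/+ Tau- and 38.6, 45.1, 41.8 and 65.3 CPM in Ch25h+/+ Tau+. Cd9 rose by 0.91 (SE 0.15, adjusted p 0.00184) and fell by 0.74 with Ch25h loss in Tau+ (SE 0.15, adjusted p 0.0134), to 28.6 ± 3.61 CPM (SD, n = 4). The second call was lost without Ch25h-/- Tau+ replicate 3 (adjusted p 0.0601), in the fit of these 8 libraries alone (-0.74, adjusted p 0.0646), with the library class covariate (-0.88, adjusted p 0.527) and in rRNA-poor libraries only (-0.87, adjusted p 0.718).

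Some markers of neighbouring cells passed the threshold in these comparisons, while the sums over marker lists were described without a test. Microglia markers (7 genes) summed to 258 to 278 CPM without tau and 332 to 426 CPM with tau in the Ch25h+/+ groups. The sums were 258 to 291 and 257 to 312 CPM in the Ch25h-/- groups. With tau in Ch25h+/+, 3 of the 7 rose, among them Csf1r (0.50, adjusted p 0.00153) and Cx3cr1 (0.51, adjusted p 0.0229; lost in 5 of 16 fits that left out 1 library), and 4 fell with Ch25h loss in Tau+. Csf1r, the receptor on which microglia depend, stood at 131 ± 9.50 CPM in Ch25h+/+ Tau+ and 94.4 ± 6.25 CPM in Ch25h-/- Tau+ (SD, n = 4). Its difference of -0.47 (adjusted p 0.00404) was -0.50 with the library class covariate, where the call was lost (adjusted p 0.41). Pericyte markers (10 genes) summed to 192 to 248 CPM without tau and 274 to 304 CPM with tau where Ch25h was present, and to 215 to 254 and 231 to 268 CPM where it was absent. Of these, Vtn rose with tau in Ch25h+/+ (0.51, adjusted p 0.0344) and fell with Ch25h loss in Tau+ (-0.45, adjusted p 0.0457), calls lost in 5 and 7 of 16 fits that left out 1 library. In the 11 other alternatives the first was lost in 2 (the fit of the 8 libraries compared and that of rRNA-poor libraries only) and the second in 6, among them the library class covariate (-0.43, adjusted p 0.976) and GC-corrected offsets (-0.33, adjusted p 0.168). Vascular smooth muscle markers summed to 22.7 to 30.4 CPM without tau and 33.3 to 40.5 CPM with tau in Ch25h+/+, and fibroblast markers to 54.9 to 106 and 88.6 to 179 CPM. In Ch25h-/- the smooth muscle sums were 26.5 to 33.1 CPM without tau and 20.7 to 41.4 CPM with tau, and the fibroblast sums 54.6 to 137 and 95.7 to 109 CPM. No gene of these 2 lists passed the threshold. The lymphatic marker Pdpn, which other cells also make, rose with tau in Ch25h+/+ (0.84, adjusted p 0.0281; lost in 4 of 16 fits that left out 1 library). None of 6 astrocyte, 6 oligodendrocyte and 6 neuron markers passed there, with medians of 0.19, 0.28 and -0.05. By comparison, the 10 endothelial genes summed to 372 to 465 CPM without tau and 401 to 500 CPM with tau in Ch25h+/+, ranges that overlap. In the Ch25h-/- groups they summed to 380 to 430 and 375 to 447 CPM. These sums weigh genes by CPM, and Slc2a1 (mean 107 CPM over 16 libraries) weighs most. In Ch25h+/+ Tau- replicate 4 it reached 166 CPM, against 104 to 106 CPM in the other libraries of that group. The part of other cell types in the values of the 10 genes was not tested.

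**Figure D4:**
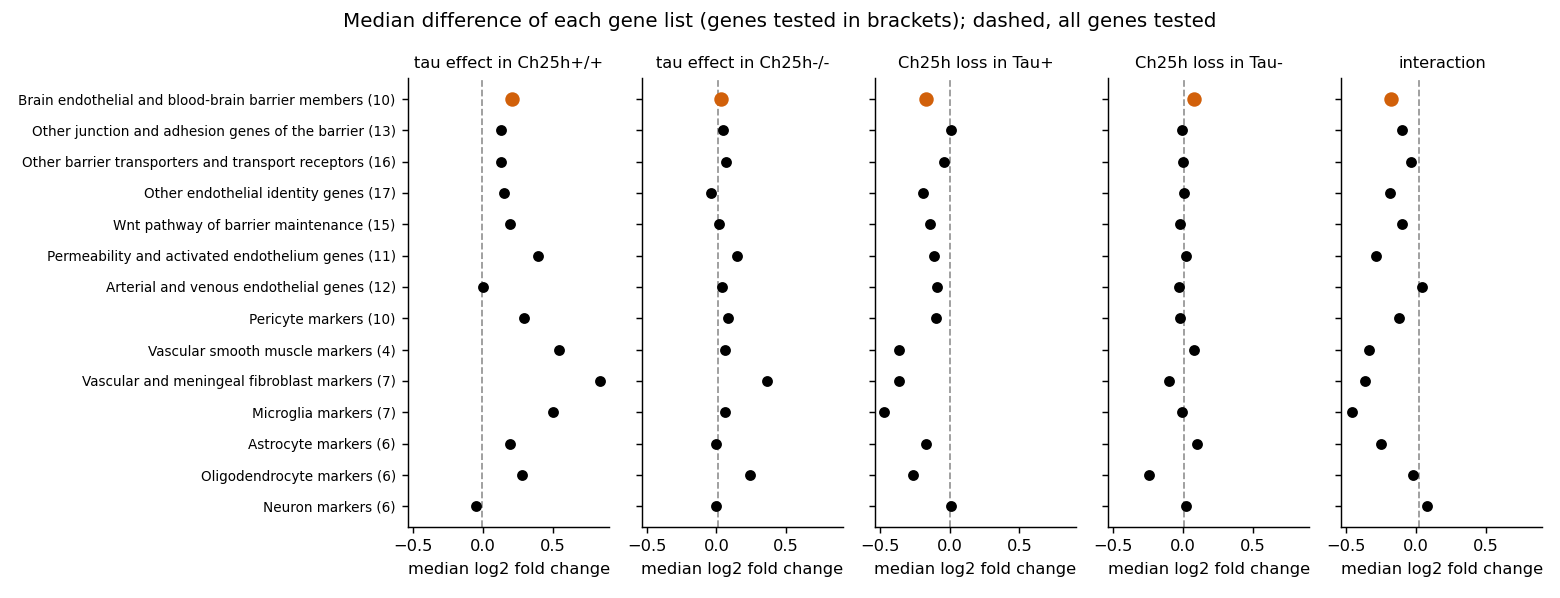
Median log2 fold change (x axis) of the genes tested in each list (y axis, number of genes in brackets) for the 4 comparisons of groups and the interaction. The orange point is the median of the 10 endothelial and barrier genes, black points are other lists and the dashed line is the median over all genes tested. For tau in Ch25h+/+ the median is 0.21 for the 10 genes and 0.39 for genes of leaky or activated endothelium. It is 0.84 for fibroblast, 0.54 for vascular smooth muscle, 0.50 for microglia and 0.29 for pericyte markers.

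**Figure D5:**
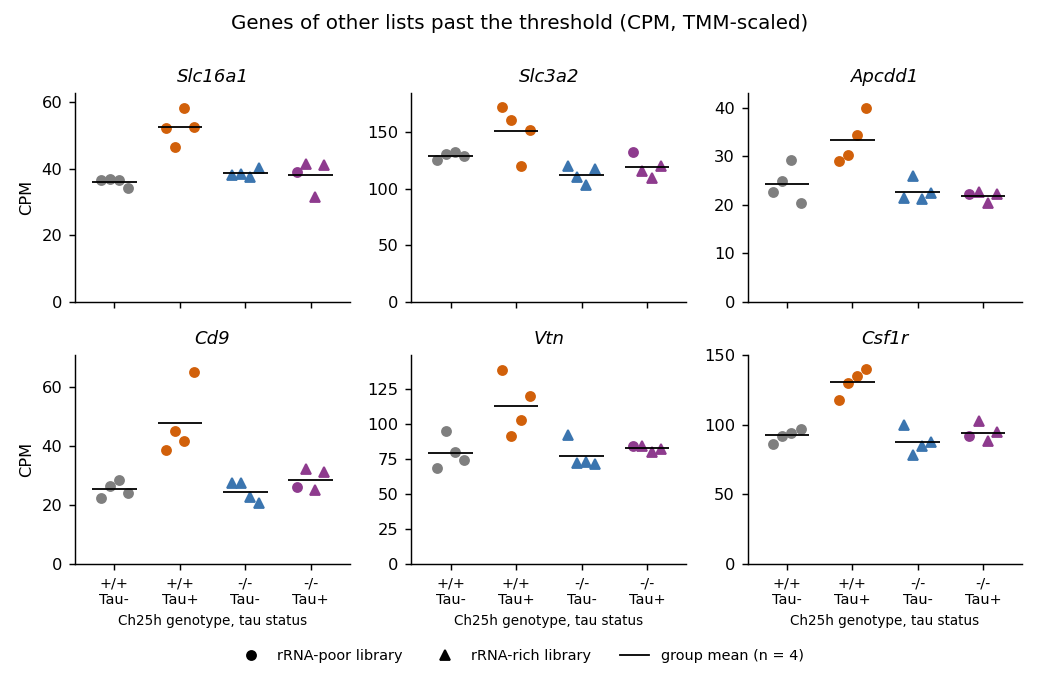
Level (y axis, CPM on TMM-scaled library sizes, from 0) of 6 genes from the other lists in the 16 libraries, by Ch25h genotype and tau status (x axis). Circles are rRNA-poor and triangles rRNA-rich libraries, and lines are group means of 4 libraries. Slc16a1, Cd9 and Csf1r in Ch25h+/+ Tau+ lie above all libraries of the other 3 groups.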

How the data were processed

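The 16 RNA-seq libraries comprised 4 per group. Per the labels' protocols, column-purified total RNA entered a SMARTer mRNA library kit. The authors deposited raw counts per gene and library. STAR 2.7 and the build GRCm38 (mm10) are named per the submitters' processing notes, while the counting program, the annotation and the use of strand are not given in the sources used here. The deposited counts were checked to be whole, with unequal library totals of 15530352 to 25602500. Replicate numbers are accession order only and pair nothing.

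Genes were filtered with filterByExpr, which left 17736, and tested with edgeR 4.0.16 in R 4.3.3 (TMM, quasi-likelihood F test, 1 mean per group, all 16 libraries), with Benjamini-Hochberg adjustment at 0.05. The script was tested on simulated data. CPM used TMM-scaled library sizes, and likeness used log2(CPM + 0.5). CPM per kilobase used the longest transcript in GENCODE M21. The members, lists and markers were chosen with earlier results of these data known. Named were all members, at most 3 genes past the threshold per other list and comparison, the 5 genes most like the mean of the members, Ch25h and CT010467.1. The values of 1 microglia marker are not reported here. Ratios of 2 CPM values were described without a test.

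Alternatives were DESeq2 1.42.0, RLE size factors, a floor of 50 mean counts, no filter beyond 1 count, limma-voom (limma 3.58.1) with quality weights, only the 8 libraries compared, a covariate for library class (rRNA-rich at 1000 CPM of CT010467.1 or more), 1 surrogate variable (sva 3.50.0), a choroid plexus covariate, GC-corrected offsets (loess, span 0.5; G+C known for 99.2% of genes tested), CPM on total counts, and each library left out. Fits of only rRNA-poor or only rRNA-rich libraries were added after seeing the data. Intervals are 95%.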

Additional observations from a re-analysis of the deposited data

Results flagged for a closer look

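In 4 of the 40 sets of 4 libraries (10 genes in 4 groups), 1 library lay far from the other 3 in CPM, where chance alone gives about 1 in 20. Slc2a1 stood at 166 CPM in Ch25h+/+ Tau- replicate 4, against 104 to 106 CPM in the other 3 libraries. Mfsd2a stood at 11.7 CPM in Ch25h+/+ Tau+ replicate 1, against 16 to 16.9 CPM. Pecam1 stood at 25.5 CPM in Ch25h-/- Tau+ replicate 1, against 20.7 to 21.2 CPM, and this library was the rRNA-poor one of its group. Abcb1a stood at 40.9 CPM in Ch25h-/- Tau- replicate 1, against 36.3 to 37.0 CPM.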

How the results depend on the processing

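The number of the 10 genes past the threshold was 0 in each comparison and became 1 in a few alternatives. It was 1 with limma-voom for the tau effect in Ch25h+/+ (Abcb1a), 1 with no filter beyond 1 count, with DESeq2 and with limma-voom for Ch25h loss in Tau+ (Cldn5), and 1 for Ch25h loss in Tau- when just those 8 libraries were fitted (Slco1a4). Leaving out each library in turn gave 0 to 1 for the tau effect in Ch25h+/+ and for Ch25h loss in Tau+, and 0 in the other comparisons. Of 1320 values of a gene under an alternative, 77 had another sign, and in none of these did either value pass. The count over all genes ran from 160 to 498 for the tau effect in Ch25h+/+ (277 as reported), from 2 to 28 for the tau effect in Ch25h-/- (7), from 3 to 1883 for Ch25h loss in Tau+ (629), from 0 to 1388 for Ch25h loss in Tau- (182) and from 0 to 57 for the interaction (6). The cause was not tested. CPM on total counts moved none of 40 group means by over 1 SD. No paired analysis was possible because the labels carry no replicate numbers. Counts of 190 to 3286 per gene and library, and 4 libraries a group, limit the precision.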
